A study of Mus musculus
Mus spretus with 18 samples.

Results

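Exons that lie between 2 long introns were followed in fibroblasts treated with pladienolide B. A skipped exon (SE) event is an alternative exon together with the exon before and the exon after it. Its percent spliced in (PSI) is the share of inclusion among transcripts that either include the exon or join its 2 flanking exons directly. Transcripts that pass only through other exons between the flanks are left out. Events were chosen by a rule on position and depth, which was set with earlier results of these data known. The distance from the alternative exon to each of its flanking exons was 5000 bp or more, and the event lay on an autosome. Each event had 20 or more junction reads in all 4 libraries. This gave 7474 events, which are 5176 exons in 2562 genes, among 54535 autosomal events with the same depth. The other 47061 events are referred to below as all other events.

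The cells were a fibroblast line from hybrid mice of the first generation (F1), with a C57BL/6J mother and a SPRET/EiJ father. The paternal strain derives from the wild species *Mus spretus*, and each cell holds a genome copy of either parent. One group was treated with pladienolide B at 0.1 μM for 4 h, and the control group with the same amount of the solvent DMSO for 4 h, with 2 libraries each. Both groups come from a single line, and the labels do not say whether the 2 libraries of a treatment were separate cultures, so p-values measure the spread between these libraries, which may be technical. Strand-specific mRNA libraries were sequenced, and the deposited table gives for each event and library the junction reads that support inclusion and skipping. Junction reads summed over all SE events were 148813435 and 151755602 after DMSO, and 129067054 and 149420347 after pladienolide B.

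Pladienolide B is a natural product that blocks splicing through the protein complex SF3B. During splicing SF3B holds the branch point adenosine of an intron, to which the start of the intron is joined before the intron is released. In vertebrate genes with long introns the splice sites are thought to be recognized in pairs across the exon, and when this recognition fails the whole exon can be skipped, with the exons on both sides joined to each other. Skipped exons can shift the reading frame and expose the transcript to nonsense-mediated decay.

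The line carried the transcripts of fibroblasts in both groups. Vim, an intermediate filament gene of mesenchymal cells, had an expression of 4397 and 4424 TPM, a unit scaled to transcript length and library total, after DMSO and 4721 and 4663 after pladienolide B, and Col1a2, a collagen gene, had 1100 and 1071 against 1272 and 1224. All 12 fibroblast markers were above 5 TPM in each library and summed to 15845 and 15421 TPM after DMSO and to 19323 and 18356 after pladienolide B. The single markers moved both ways. S100a4 went from 2782 and 3090 to 5629 and 5229 TPM and Fn1, the fibronectin gene, from 4342 and 3735 to 5265 and 4888. Pdgfra and Pdgfrb, growth factor receptors of fibroblasts, went from 441 and 437 to 82.8 and 82.6 and from 227 and 207 to 44.5 and 43.6. Col3a1, Col5a1, Fbn1 and Lox were also lower in both treated libraries. Summed markers of endothelial, neuronal and pluripotent cells stayed below 0.3 TPM in every library. Epithelial markers summed to 8.42, 7.76, 8.89 and 8.85 TPM, nearly all of it from Cdh1, with Cldn4 at 0 in all 4 libraries, and leukocyte markers to 8.47, 8.86, 6.91 and 8.83 TPM, nearly all of it from Cd68, with Cd3e at 0 in all 4 libraries.

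The 7474 events were what remained of 10049 autosomal events between long introns. Of those left out, 984 had fewer than 20 reads only after pladienolide B, 262 only after DMSO, and 1329 in both. The minimum was met by 74.4% of the events between long introns and by 84.3% of all others. Events short of reads only after pladienolide B were 984 of 10049 between long introns and 5473 of 55807 among all others, so that the gap lay in events short after DMSO or in both. The shorter of the 2 flanks had a median of 9962 bp in the members and of 797 bp in all other events, and reached 217948 bp. The exons between long introns had a median length of 122 bp (quartiles 86 and 169 bp), against 113 bp (81 and 153 bp) for all others. Their length was a multiple of 3 in 38.4% of the exons, against 41.0% for all others. In 4559 of the 7474 events (61%), a flank held another alternative exon of the same table, against 34.0% of all other events, so that "intron" here means the distance in the event and can span further exons. The reads per event were fewer between long introns, with medians of 605 and 610 per library after DMSO and 189 and 225 after pladienolide B, against 978, 985, 263 and 314 for all other events.

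Most of these exons had a high PSI in control cells. Over the members the PSI had a median of 1 in both DMSO libraries, and the 10th percentile was 0.925 and 0.924. After pladienolide B the median was 0.991 and 0.989, and the 10th percentile was 0.721 and 0.711. A PSI below 0.9 was found in 8.75% and 8.62% of the members after DMSO and in 19.5% and 20.7% after pladienolide B. All other events had 7.74% and 7.76% after DMSO and 16.3% and 17.1% after pladienolide B. Both groups of events had more skipping in each treated library than in either control library, and at this limit the share was higher between long introns in every library. With a PSI below 0.5 it was not, with 4.71% and 4.79% of the members after DMSO against 5.06% and 5.07% of all other events, and 6.48% and 6.44% against 6.39% and 6.48% after pladienolide B. When the reads of each event and library were thinned to 20, the 4 shares below 0.9 were 8.64%, 8.68%, 18.1% and 19.3% of the members and 7.84%, 7.77%, 15.6% and 16.5% of all other events.

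**Figure D1:**
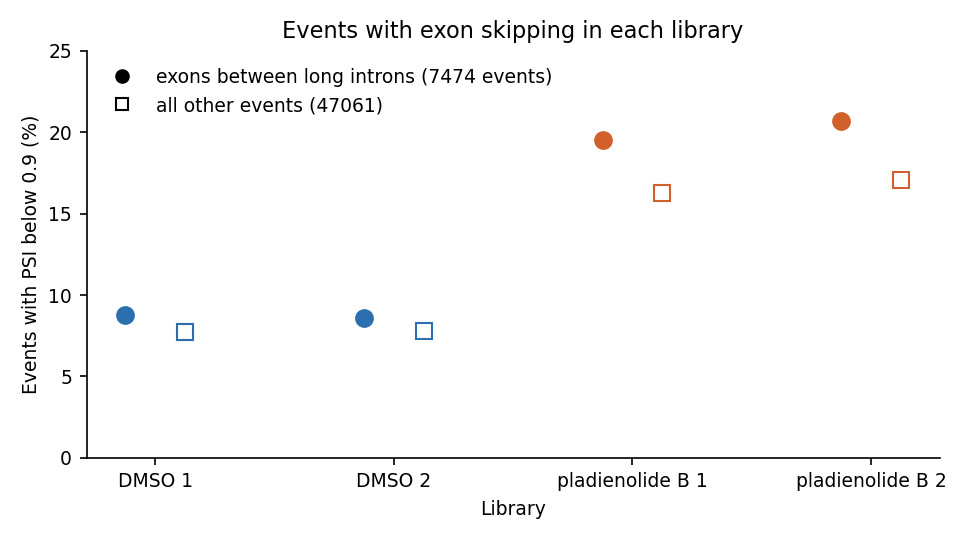
Share of events with a PSI below 0.9 (%, y axis) in each of the 4 libraries (x axis), for the 7474 events between long introns (filled circles) and the 47061 other events (open squares). The share of the members was 8.62% to 8.75% in the DMSO libraries (blue) and 19.5% to 20.7% in the pladienolide B libraries (orange).

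The shift between treatments was larger than the difference between libraries of 1 treatment. Between the DMSO libraries, 0.589% of the members were lower and 0.682% higher by 0.1 or more in the second than in the first, and between the pladienolide B libraries 5.19% were lower and 4.09% higher. Across treatments, 11.8% to 13.2% of the members were lower by 0.1 or more after pladienolide B in the 4 pairs of libraries, and 0.937% to 1.02% were higher. The median change was small, with a difference in mean PSI of -0.0064 over the members and of -0.0051 over all other events. With 2 libraries against 2, an exact two-sided permutation test of any single value cannot go below p = 0.333, so single events were tested in a quasi-binomial model fitted over all 54535 events, with p-values of an F test corrected after Benjamini and Hochberg over all of them. An event was called with an adjusted p under 0.05 and a difference in mean PSI of at least 0.1.

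More exons were called lower than higher. Among the members, 736 events (9.85%) were lower after pladienolide B and 15 (0.201%) were higher. With the replicate number as a block in the model, 520 were lower and 6 higher. An exon with a PSI above 0.9 after DMSO can be called lower but not higher, and this holds for most members. Of the 284 members with a PSI after DMSO of 0.5 to 0.9, 45 were lower and 9 higher, and of the 139 at 0.1 to 0.5, 11 were lower and 4 higher. Among all other events, 265 were lower and 31 higher of 1233 in the first class, and 96 and 30 of 703 in the second. Over all events tested, 8.2% were called lower and 0.169% higher, and over all other events 7.94% and 0.164%. The 736 events were joined by 631 different skipping junctions, and 204 of them shared a junction with another called event, so their counts are not independent of each other. No test of the difference between the shares was made, because events are not replicates. Counted once per exon, by the event with the most reads, 468 of the 5176 exons (9.04%) in 388 genes were lower and 14 (0.270%) were higher. Counted in the same way, 6.91% of the exons of all other events were lower and 0.167% higher, where an exon with events of both kinds counts in both. With 1 event per exon taken over the whole table, 7.78% of 4382 exons between long introns were lower, against 6.90% of all others.

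**Figure D2:**
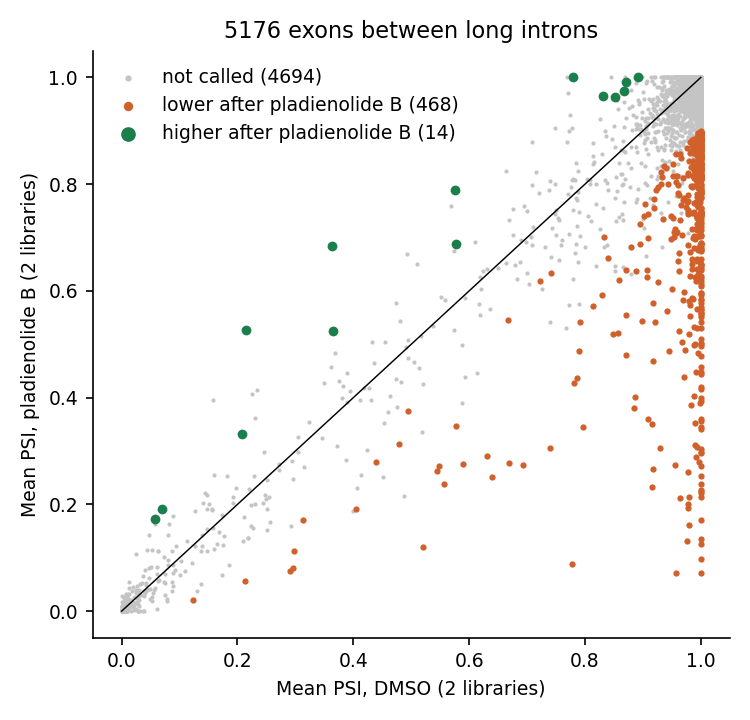
Mean PSI over the 2 pladienolide B libraries (y axis) against mean PSI over the 2 DMSO libraries (x axis) for the 5176 exons between long introns, 1 event per exon, with the line of equal PSI. The 468 exons called lower (orange) lie mostly at the right edge, where the PSI after DMSO was above 0.9 for 421 of them, and the 14 called higher (green) start from a PSI after DMSO between 0.0581 in Zeb1 and 0.891 in Senp7.

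Most exons that fell had a high PSI in control cells, as had the exons between long introns as a whole. The mean PSI after DMSO was above 0.9 in 421 of the 468 exons (90.0%), against 89.3% of all 5176 exons. The median difference in PSI was -0.217 (quartiles -0.353 and -0.145), with 55 exons that fell by 0.5 or more and 212 by less than 0.2. Of the 468, 162 (34.6%) had a length that is a multiple of 3, against 38.4% of all 5176 exons, and 275 (58.8%) had another alternative exon in a flank, against 46.7% of all 5176 exons.

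In most of the exons that fell, the reads of both forms moved. Reads that skip the exon had a median of 1 per exon in each DMSO library, and of 16.5 and 24 in the pladienolide B libraries. No skipping read at all was found for 230 and 221 of the 468 exons after DMSO, and for 6 and 10 after pladienolide B. Reads that include the exon had medians of 483 and 485 after DMSO, and of 75.5 and 89.5 after pladienolide B. Skipping reads were higher in both treated libraries than in both controls for 354 of the 468 exons, inclusion reads were lower for 453, and both held for 340. Fewer inclusion reads were general, with 79.2% of all 5176 exons against 96.8% of those that fell, and more skipping reads were found for 20.9% and 75.6%. The PSI that defines the calls is made of these reads, so the shares only describe the exons that fell.

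**Figure D3:**
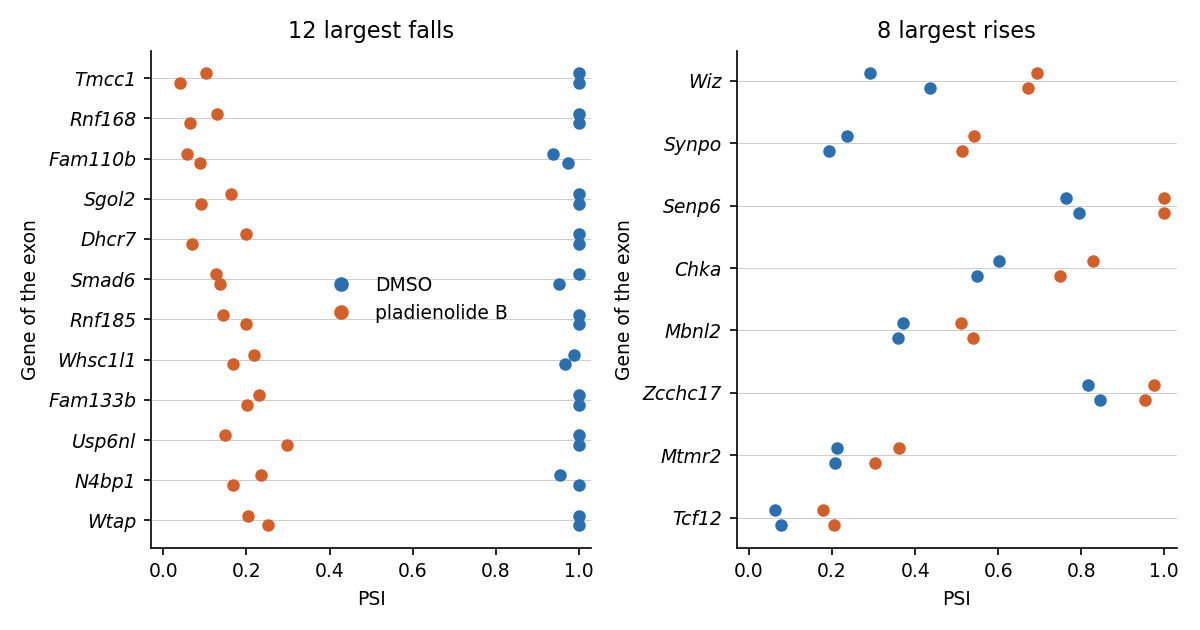
PSI (x axis, from 0 to 1) in each of the 4 libraries for exons between long introns, with 1 row and 1 exon per gene. Shown are the 12 with the largest falls (left) and the 8 with the largest rises (right). Blue points are DMSO libraries and orange points pladienolide B libraries. Exons whose treatments overlap in PSI were not eligible. In the 12 falls the treated points lie at or below 0.297, and in the 8 rises between 0.178 and 1.

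The largest fall was in Tmcc1, a gene of a membrane protein of the endoplasmic reticulum. Its exon of 56 bp (chr6:116138195-116138250, minus strand, GRCm38) lies between flanks of 55007 and 94389 bp. Its PSI was 1 in both DMSO libraries and 0.103 and 0.0401 after pladienolide B, a fall of 0.928 ± 0.0317 (SE, n = 2 and 2, adjusted p = 7.82e-06, quasi-binomial F test). This exon has few reads, with 36 and 55 that include it after DMSO and 3 and 2 after pladienolide B, against 0, 0, 19 and 35 that skip it. Another Tmcc1 exon on the same skipping junction had 253 and 260 inclusion reads after DMSO. The PSI of 1 is therefore not the share of all Tmcc1 transcripts that hold the exon of 56 bp.

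Rnf168 encodes a ubiquitin ligase that marks chromatin around DNA breaks, and its exon of 79 bp (chr16:32291903-32291981, plus strand) had a PSI of 1 and 1 after DMSO and of 0.130 and 0.0646 after treatment (adjusted p = 3.99e-07). Inclusion reads were 288 and 357 against 5 and 2, and skipping reads 0 and 0 against 22 and 19, so both forms moved. Rnf185, a ubiquitin ligase of the endoplasmic reticulum, had an exon of 55 bp with a PSI of 1 and 1 against 0.144 and 0.199 (adjusted p = 1.68e-08). In both genes the treated libraries lay far below the controls.

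Sgol2 encodes a shugoshin that protects cohesin at centromeres, and its exon of 86 bp (chr1:58002894-58002979, plus strand) had a PSI of 1 and 1 against 0.162 and 0.0903 (adjusted p = 1.36e-08). Dhcr7, the enzyme of the last step of cholesterol synthesis, had an exon of 92 bp with a PSI of 1 and 1 against 0.199 and 0.0700 (adjusted p = 1.46e-05), on 43 and 72 reads after DMSO and 21 and 37 after treatment. Fam110b had a PSI of 0.939 and 0.975 against 0.0578 and 0.0868 at an exon of 87 bp between flanks of 85160 and 68611 bp. Of the 3 exons, the one in Dhcr7 had the fewest reads and the widest spread between the treated libraries.

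Smad6, an inhibitor of signalling by bone morphogenetic proteins, is a case in which the reads of the event did not become scarce. Its exon of 57 bp (chr9:64012215-64012271, minus strand) had 488 and 543 reads after DMSO and 477 and 646 after pladienolide B. The inclusion reads were 488 and 524 against 80 and 115, and the skipping reads 0 and 19 against 397 and 531. Its PSI was 1 and 0.952 against 0.128 and 0.136 (adjusted p = 2.85e-11). Fam133b was alike in this respect, with skipping reads of 0 and 0 against 458 and 707, inclusion reads of 427 and 429 against 225 and 292, and a PSI of 1 and 1 against 0.229 and 0.2 (adjusted p = 5.03e-11). In these 2 genes most junction reads of the event came from the skipped form after treatment.

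Usp6nl, which encodes an activator of GTP hydrolysis by Rab proteins, had a PSI of 1 and 1 against 0.147 and 0.297, but on 28 and 28 reads after DMSO and 30 and 71 after treatment (adjusted p = 0.000253). N4bp1, an inhibitor of inflammatory signalling, had a PSI of 0.955 and 1 against 0.234 and 0.167 at an exon of 131 bp (adjusted p = 4.48e-08). Of the 12 exons, these 2 had the longest exon (N4bp1) and the widest gap between treated libraries (Usp6nl).

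Each of the 12 exons had another alternative exon in a flank, against 58.8% of the exons that fell and 46.7% of all 5176 exons. For 5 of the 12 exons, another exon called lower lay between the same flanking exons and shared the skipping reads, in Tmcc1, Smad6, Rnf185, Whsc1l1 and Wtap. The second Tmcc1 exon, of 691 bp, had a PSI of 1 and 1 against 0.283 and 0.167, the second Smad6 exon, of 78 bp, 1 and 0.961 against 0.164 and 0.16, and the second Rnf185 exon, of 221 bp, 1 and 1 against 0.269 and 0.208. Whsc1l1 encodes a methyltransferase of histone H3. Its exons of 72 bp (chr8:25648441-25648512, plus strand) and 163 bp (chr8:25649541-25649703) lie between the same flanking exons and share the skipping junction, which had 3 and 7 reads after DMSO and 85 and 115 after pladienolide B. The PSI of the first was 0.989 and 0.967 against 0.218 and 0.167 (adjusted p = 2.02e-09), and of the second 0.994 and 0.986 against 0.325 and 0.297 (adjusted p = 4.64e-10). A further Whsc1l1 exon of 749 bp upstream of both stayed at 1 and 1 against 1 and 0.971 and was not called (adjusted p = 0.208).

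Wtap, a subunit of the complex that methylates adenosines of mRNA, had 3 called exons between the same 2 flanking exons, with 1 skipping junction of 0 and 0 reads after DMSO and 77 and 113 after pladienolide B. The exon of 128 bp (chr17:12980822-12980949, minus strand) had a PSI of 0.727 and 0.703 after treatment, that of 38 bp (chr17:12985916-12985953) 0.515 and 0.381, and that of 56 bp (chr17:12983457-12983512) 0.204 and 0.252, all from 1 in both controls. The 3 values differ with the inclusion reads, which were 379 and 495, 102 and 87, and 27 and 52 after treatment. They also depend on exon length, because reads are counted per position that a read can take. The exon of 56 bp had few inclusion reads after DMSO, although its PSI was 1, because a PSI compares an exon with the junction that skips from flank to flank and leaves out transcripts that pass through other exons between them. Its inclusion reads were 31 and 29 against 27 and 52, so that the treated libraries lay on either side of the controls.

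Nuak1, a kinase related to the AMP-activated kinase, had all 3 of its exons between long introns called. The exon of 66 bp (chr10:84392256-84392321, minus strand) had a PSI of 1 and 1 against 0.328 and 0.269 (adjusted p = 1.31e-09). Its upstream flank of 47793 bp holds the other 2 exons. Its skipping junction, with 0 and 0 reads after DMSO and 104 and 163 after pladienolide B, thus passes over all 3 exons. The exon of 152 bp had 0.991 and 0.99 against 0.842 and 0.773 (adjusted p = 6.9e-05), and that of 121 bp had 0.994 and 0.993 against 0.822 and 0.740 (adjusted p = 3.45e-07). Besides Wtap and Nuak1, a further 6 genes had 3 called exons each, all of them lower. They were all 3 of the exons between long introns in Arhgap21 and Sh3bp4, and 3 of 4 in R3hcc1l and Shb. In Kdm4c they were 3 of 6, and in Phldb2 3 of 7.

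The exons that rose were few, and by the call rule none could have a PSI above 0.9 after DMSO. Wiz, a zinc finger partner of histone methyltransferases, had the largest rise: its exon of 73 bp (chr17:32381084-32381156, minus strand) had a PSI of 0.290 and 0.437 against 0.695 and 0.673 (adjusted p = 0.0074). Synpo, which encodes an actin-associated protein, had a PSI of 0.237 and 0.194 against 0.542 and 0.512 (adjusted p = 0.00268), while its reads went from 619 and 787 to 55 and 59. Senp6, a protease that removes SUMO, had 0.763 and 0.795 against 1 and 1 (adjusted p = 0.0475), with 39 and 35 reads after treatment. Chka, the first enzyme of phosphatidylcholine synthesis from choline, had 0.603 and 0.549 against 0.829 and 0.748 (adjusted p = 0.0109). The calls of these 4 exons depended on the treated libraries. Without pladienolide B replicate 2 none of the 4 passed (adjusted p = 0.122, 0.0699, 0.215 and 0.0543 in the same order), and without replicate 1 Wiz, Senp6 and Chka did not (adjusted p = 0.0840, 0.199 and 0.105). Chka was also not called with limma on the empirical logit (adjusted p = 0.0766). Senp6 was not called in the quasi-binomial model with no depth trend in its prior (adjusted p = 0.0810).

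The remaining rises were smaller. Mtmr2, a phosphatase of phosphoinositides, had 0.211 and 0.206 against 0.361 and 0.303 (adjusted p = 0.000422), and Tcf12, a helix-loop-helix transcription factor, 0.0620 and 0.0772 against 0.178 and 0.205 (adjusted p = 7.57e-05). Zcchc17 had 0.817 and 0.845 against 0.975 and 0.955 (adjusted p = 0.00459). Without pladienolide B replicate 1, Zcchc17 no longer passed (adjusted p = 0.0550) and the difference of Mtmr2 was 0.0941. Mtmr2 was also not called with limma on the empirical logit (adjusted p = 0.154). In all 8 genes with the largest rises, the skipping reads and the inclusion reads were both fewer in each treated library than in either control. In Synpo the skipping reads were 413 and 568 against 19 and 22, and the inclusion reads 206 and 219 against 36 and 37. The inclusion reads moved least in proportion in Mtmr2, with 345 and 359 against 339 and 301. Its skipping reads were 877 and 942 against 409 and 472.

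Mbnl2, a regulator of alternative splicing, held a called exon of each direction. The exon of 619 bp (chr14:120324794-120325412, plus strand) fell from 0.982 and 0.987 to 0.870 and 0.855 (adjusted p = 4.46e-08), and the exon of 95 bp (chr14:120404638-120404732) rose from 0.372 and 0.358 to 0.509 and 0.540 (adjusted p = 5.85e-05). The call of the rise was lost with limma on the empirical logit (adjusted p = 0.136). The other 4 Mbnl2 exons between long introns were not called and had a PSI of 0.971 or more in every library. In its relative Mbnl1, the exon of 1049 bp (chr3:60528756-60529804, plus strand) fell from 0.410 and 0.399 to 0.196 and 0.187 (adjusted p = 7.32e-11), on more than 4000 reads in each library.

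The exons between long introns were also counted by the function of their genes. Of 45 exons in 17 genes of splicing factors and the spliceosome, 5 fell and 1 rose, and the median difference was -0.0017, against 468 falls and 14 rises among 5176 exons (9.04% and 0.270%) and a median of -0.0047 over all exons between long introns. Besides the Mbnl genes, Sf3b3, which encodes a subunit of the complex that pladienolide B binds, had an exon of 73 bp (chr8:110831484-110831556, minus strand) with a PSI of 1 and 1 against 0.821 and 0.744 (adjusted p = 1.33e-07).

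Among chromatin regulators, 16 of 83 exons in 37 genes fell and none rose, with a median difference of -0.0263. Besides Whsc1l1, the called exons with the most reads were in Setd5, with a PSI of 1 and 1 against 0.704 and 0.748, and in Chd2, a chromatin remodeller, with 0.981 and 0.974 against 0.784 and 0.752. Among transcription factors, 26 of 190 exons in 59 genes fell and 2 rose, with a median of -0.0154. Sp3 had 0.997 and 1 against 0.906 and 0.861, Meis1, a homeobox factor, 0.959 and 0.964 against 0.813 and 0.746, and Glis3, a zinc finger factor, 0.961 and 0.989 against 0.795 and 0.721 at an exon between flanks of 133766 and 172920 bp. The libraries of both treatments lay apart in all 5 of these exons, as they did in 452 of the 468 exons that fell. Without pladienolide B replicate 2 the difference in Sp3 was -0.0921.

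Among regulators of GTPases, 15 of 116 exons in 44 genes fell and none rose, with a median of -0.0095. They include Asap1, an activator of GTP hydrolysis by Arf proteins (0.841 and 0.823 against 0.675 and 0.727, adjusted p = 0.0259), Grlf1 (0.988 and 0.988 against 0.909 and 0.861), and Tbc1d14 (1 and 1 against 0.825 and 0.802). Asap1 did not pass without pladienolide B replicate 1 or 2 (adjusted p = 0.185 and 0.143) or with limma on the empirical logit (adjusted p = 0.125), nor did Grlf1 without replicate 2 (adjusted p = 0.0608). Among kinases and phosphatases of signalling, 16 of 184 exons in 69 genes fell and 1, in Mtmr2, rose, with a median of -0.0084. Gsk3b, a kinase of Wnt and insulin signalling, had a PSI of 1 and 0.994 against 0.699 and 0.551 (adjusted p = 3.82e-08), and Ppp1r12a, the targeting subunit of myosin phosphatase, 0.994 and 0.996 against 0.895 and 0.856.

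Among genes of the cytoskeleton and cell adhesion, 11 of 144 exons in 47 genes fell and none rose, with a median of -0.0045. Their called exons with the most reads were those of Dlg1, a scaffold of cell junctions (0.672 and 0.662 against 0.523 and 0.568), Myo10, a motor of filopodia (0.984 and 0.978 against 0.882 and 0.837), and Pdlim5 (0.987 and 0.987 against 0.871 and 0.811). Leaving out pladienolide B replicate 1 left a difference of -0.0987 in Dlg1, and leaving out replicate 2 one of -0.0995 in Myo10, and limma on the empirical logit did not call Dlg1 (adjusted p = 0.229). Among ubiquitin ligases and deubiquitinases, 7 of 100 exons in 49 genes fell and none rose, with a median of -0.0081. Usp10, a deubiquitinase, had 0.984 and 1 against 0.276 and 0.303 (adjusted p = 2.74e-09), Rnf146, a ligase, 0.998 and 0.998 against 0.694 and 0.712, and Usp12 1 and 0.998 against 0.733 and 0.801. Between 7.0% and 19.3% of the exons fell in the 7 lists, around the 9.04% of all exons between long introns, and these counts carry no test.

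The share of events called lower was then set against the length of the flanks. With both flanks of 5000 bp or more, 9.85% of the events were lower. The share was 9.52% where only the upstream flank, in the direction of transcription, was this long (7901 events), 8.36% where only the downstream flank was (5356 events), and 7.50% where neither was (33804 events). Where the flanks held no other alternative exon, the 4 shares were 6.69%, 6.74%, 6.16% and 6.53% in the same order, and the difference between both flanks long and neither was 0.161 percentage points in place of 2.35. Where a flank held another alternative exon, they were 11.9%, 11.96%, 10.4% and 10.2%. By the length of the shorter flank, the share lay between 7.29% and 8.59% in the 5 bins below 5000 bp and was 9.28% from 5000 to under 10000 bp, 9.53% from there to under 20000 bp and 11.5% at 20000 bp or more.

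Events on both sides of the limit had like shares. Those just inside it, with a shorter flank of 5000 to under 6000 bp, had 10.6% lower (120 of 1136 events), and those just outside, at 4000 to under 5000 bp, 9.87% (172 of 1742). At 5000 bp, the event of Smek1 had a PSI of 1 and 1 against 0.929 and 1, that of Anxa4 0.99 and 0.992 against 0.99 and 0.995, and that of Eif2a 0.997 and 0.991 against 0.989 and 0.995. At 4999 bp, the event of Auts2 had 1 and 1 against 1 and 0.837, and 2 events of Phf20 had 0.987 and 0.996 against 0.909 and 0.938 and 0.979 and 0.968 against 0.681 and 0.772.

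The difference from all other events was smaller in some comparisons of like events. Where a flank held another alternative exon, 11.9% of the members and 10.7% of all other events were lower. Where none did, the shares were 6.69% and 6.52%. Over 4 equal groups of read depth, from the lowest to the highest, 13.5%, 11.4%, 6.81% and 2.79% of the members were lower, against 13.6%, 11.1%, 6.23% and 1.68% of all other events. With both properties crossed, the members had the lower share at the lowest depth, with 15.8% against 17.9% where a flank held another exon and 8.25% against 9.92% where none did. At the highest depth they had the higher share, with 2.14% against 1.46% and 3.46% against 1.75%. In the second depth group the order differed, at 14.0% against 12.6% with another exon and 7.50% against 10.2% without. In the third it was 7.07% against 6.44% and 6.49% against 6.15%. Depth and the presence of other exons in the flanks thus moved with the call, and their part in the difference between members and all other events was not tested. Within classes of the PSI after DMSO, the members had the higher share at 0.99 or more (9.46% against 7.18%), about the same at 0.9 to 0.99 (11.8% against 11.7%), and the lower share at 0.5 to 0.9 (15.8% against 21.5%) and at 0.1 to 0.5 (7.91% against 13.7%). In all 5 classes of exon length the share was higher in the members, between 8.50% and 11.7%, against 6.70% and 9.33% in all other events.

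**Figure D4:**
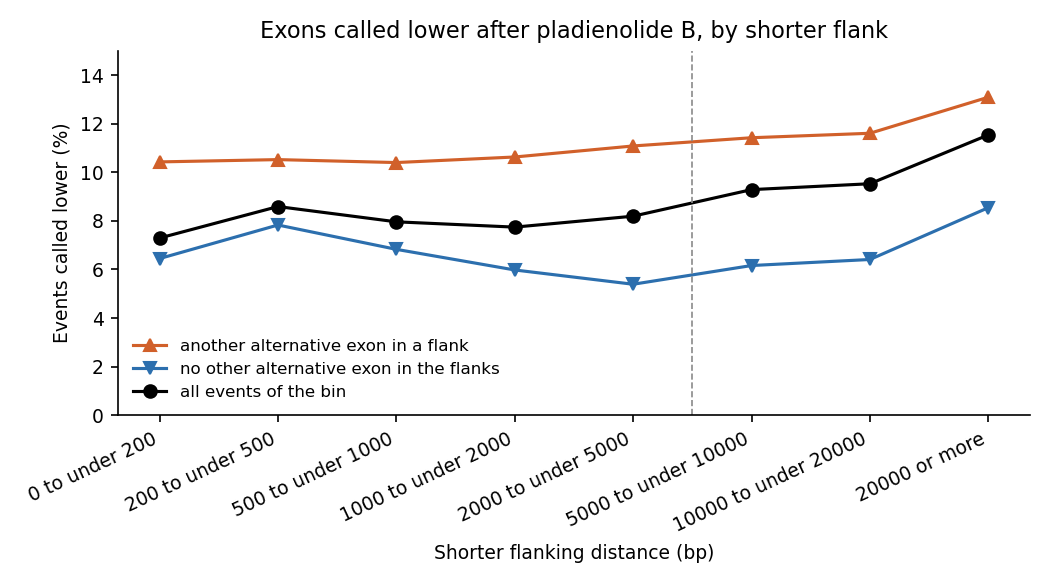
Share of events called lower after pladienolide B (%, y axis) by bins of the shorter flanking distance (bp, x axis; the dashed line marks 5000 bp), for all events of a bin (black) and for events with (orange) and without (blue) another alternative exon in a flank. Over all events the share was 7.29% in the shortest bin and 11.5% in the longest. With another exon in a flank it ran from 10.4% to 13.1%, and without from 6.45% to 8.54%, with a lowest value of 5.39% from 2000 to under 5000 bp.

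The hybrid cells allowed the same exons to be read on each allele. Reads assigned to either allele are part of the total reads and are no independent replicate. With 20 or more reads on each allele in each library, 1818 of the 7474 events could be followed. Of the 169 among them that were called lower, 167 were lower on both alleles and 111 by 0.1 or more on both. Of the 9 called higher, 8 were higher on both. Among 11767 other events, 852 were called lower, of which 801 were lower on both alleles and 535 by 0.1 or more on both. In Usp10 the 2 alleles differed little in their response, with changes of -0.680 and -0.707, and in Gsk3b the changes were -0.327 and -0.510. A difference of 0.1 or more between the alleles was found in 108 of the 1818 events (5.94%) after DMSO and in 232 (12.8%) after pladienolide B, where the reads were fewer, against 4.64% and 10.9% of all other events.

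The same exons were looked up in 7 further sample types of the hybrids, namely embryonic stem cells and 6 tissues of mice aged 8 weeks (heart, lung, liver, spleen, kidney and cerebral cortex). Of the 736 events called lower, 397 had 20 or more reads in both replicates of at least 1 of them, and 315 of these (79.3%) had a mean PSI above 0.9 wherever measured. For events between long introns that were not called, the share was 81.5% of 4205. Many of these events were measured in fewer than 7 sample types. Of those measured in all 7, 36 of 88 called lower and 375 of 710 not called were above 0.9 in all 7. Chd2 was 1 of the 36, with a PSI between 0.975 and 0.988. Of the 15 events called higher, 4 were above 0.9 wherever measured, and a rise of 0.1 was only possible from a PSI after DMSO of at most 0.9. The Mbnl2 exon of 95 bp ranged from 0.132 in heart to 0.872 in embryonic stem cells, the Mbnl1 exon of 1049 bp from 0.223 in lung to 0.954 in cortex, and the Mtmr2 exon from 0.186 in heart to 0.498 in liver.

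The genes that hold these exons had lower TPM after treatment. TPM is a share of all transcripts of a library, and in these bulk libraries fewer cells of a kind and less RNA per cell cannot be told apart. Of 13221 genes tested with limma on log2(TPM + 0.1), 73.1% were lower and 15.8% higher after pladienolide B, with a median log2 change of -1.13. Of the 2553 genes with exons between long introns, 2250 (88.1%) were lower and 158 (6.19%) higher, with a median of -1.57, against -1.11 in the 6153 genes whose events were all outside the rule. The 387 genes with an exon between long introns that fell had a median of -2.01, and 373 of them were lower. The 100 most abundant genes took 29.3% and 29.6% of all TPM after DMSO and 42.0% and 41.8% after pladienolide B. With values centred on the median gene, 44.2% of the 13221 genes tested were lower (5841) and 5850 were higher. Of the 2553 genes with exons between long introns, 1489 (58.3%) were then lower and 795 higher. Of the 6153 genes whose events were all outside the rule, 2713 (44.1%) were lower and 2776 higher.

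Single genes differed in this respect. Rnf168 had 33.7 and 33.2 TPM after DMSO and 2.31 and 2.49 after pladienolide B (limma adjusted p = 3.41e-06), and Synpo 136 and 128 against 12.9 and 13.2. Smad6 had 50.1 and 48.1 against 42.5 and 46.5 TPM (limma adjusted p = 0.0738), and Fam133b 41.6 and 42.1 against 44.4 and 53.5 (limma adjusted p = 0.0812). Of the 12 genes with the largest falls in PSI, these last 2 did not pass the test, and the other 10 were lower in TPM. Smad6, Fam133b and Usp6nl, with a log2 change of -1.04, lay above the median gene.

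**Figure D5:**
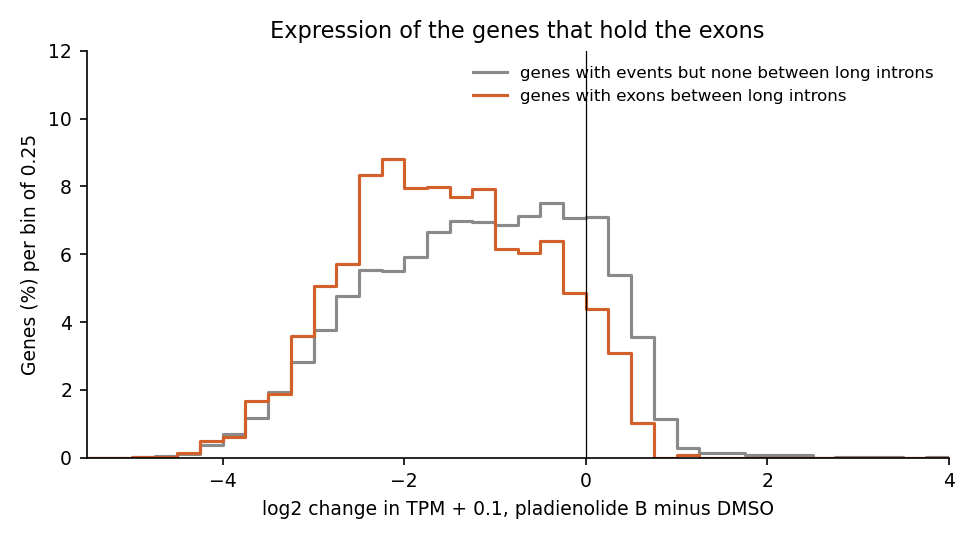
Share of genes (%, y axis) by log2 change in TPM + 0.1, pladienolide B minus DMSO (x axis, bins of 0.25), for the 2553 genes with exons between long introns (orange) and the 6153 genes with SE events but none between long introns (grey). The median was -1.57 in the first and -1.11 in the second.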

How the data were processed

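The authors aligned reads with HISAT2 2.0.1 to mm10 and a SPRET/EiJ genome, and counted junction reads with rMATS on the Ensembl annotation. The deposited cells are lists of junction read counts, 1 per library, not normalized, and the deposited effective lengths of both forms, the read positions each can hold, are lengths and were handled like scores with no fixed range. The deposited expression values are in TPM, of which 14 columns of other samples were not used. The authors' own p-values and differences in inclusion were not used. Which list in the fibroblast table belongs to which treatment was settled from the allelic tables, since total reads cannot be fewer than allelic reads.

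PSI was recomputed as inclusion reads per effective length over the sum of both forms per effective length. The treatment was tested over all 54535 events with a quasi-binomial model, with dispersions of at least 1 moderated by limma 3.58.1 toward a prior that follows depth. Events with 10 or more reads of each form in each treatment set that prior. This rule and the residual degrees of freedom were changed 2 times after counts of calls had been seen, and the model was tested on simulated data only afterwards. Members and gene lists were chosen with earlier results of these data known. Named exons are, with 1 event per exon, the 12 largest falls and 8 largest rises without overlap between treatments. The others are the 3 called exons with most reads in each list. Each gene was taken once among the falls, once among the rises and once per list. Nuak1 and the further exons of named genes were chosen after their values were seen. TPM were tested with limma, for genes with a mean TPM of 1 or more and a pseudocount of 0.1, and adjusted over all genes tested. All 40 named exons lie inside their gene in RefSeq (GRCm38.p6). Known imprinted genes were not left out. Software was Python 3.11.15 and R 4.3.3.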

Additional observations from a re-analysis of the deposited data

How the results depend on the processing

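The number of events between long introns called lower was 736, and lay between 493 (without pladienolide B replicate 2) and 715 when 1 library was left out, with the lone library assumed to vary like the others; of the 493, 462 were among the 736. It was 680 with no depth trend in the prior, 536 with a minimum of 50 reads, 513 from raw counts without effective lengths, 822 of 1701 without events near 0 or 1 (PSI below 0.1 or above 0.9 in all 4 libraries), and 700 with limma on the empirical logit. It was 400 with a minimum PSI difference of 0.2, 341 with 1 event per exon taken over the whole table, 1535 with flanks of 2000 bp or more, 387 with 10000 bp or more, and 195 where the flanks held no other alternative exon. The number called higher was 15, between 7 and 18 without 1 library, and 5, 29, 8, 6 and 25 with a PSI difference of 0.2, flanks of 2000 bp, flanks of 10000 bp, flanks without another exon, and without events near 0 or 1. With the replicate number as a replicate block, 520 events were lower and 6 higher, and Wiz, Senp6, Chka, Zcchc17 and Asap1 were not called; the replicates share only a number, and their deviations were not correlated (r = 0.0251). The 2 forms of the prior tried first gave 628 lower and 9 higher, and 770 lower and 18 higher. The edgeR alternative was not run, and limma on the empirical logit was added in its place. This limma fit and the centred TPM were chosen after seeing the data.

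Over all events, 4472 were called lower and 92 higher. These were 2977 and 61 with 50 reads, 2358 and 41 with a PSI difference of 0.2, 2899 lower with 1 event per exon, 2220 and 59 without other exons in the flanks, 37 higher with the replicate block, 58 higher with the first form of the prior, and between 3011 and 4380 lower and 40 and 106 higher without 1 library. The share called lower with both flanks long minus that with neither was 2.35 percentage points, between 1.56 and 2.21 without 1 library. It was 1.60 with a PSI difference of 0.2, 0.971 with 1 event per exon, 1.54 with flanks of 2000 bp, and 0.161 without other exons in the flanks, and -1.51, the reverse sign, without events near 0 or 1. That filter also reads the treated libraries, so events near 1 after DMSO stay in mainly where they fell, and its values say nothing about flank length. The mean PSI of the members differed by -0.0390 between treatments, by -0.0407 to -0.0374 without 1 library, and by -0.0316, -0.0296, -0.0367, -0.0239, -0.145 and -0.0276 with 50 reads, 1 event per exon, flanks of 2000 bp, no other exons in the flanks, no events near 0 or 1, and raw counts. The 40 named exons were followed under the other priors, the replicate block, limma on the empirical logit and each library left out. None changed direction and 28 were called in all of these; Asap1, Chka, Dlg1, Grlf1, Mtmr2, Myo10, Senp6, Sp3, Synpo, Wiz, Zcchc17 and the Mbnl2 exon that rose were not. Centred TPM left 1489 genes lower and 795 higher, in place of 2250 and 158.

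Members had a median of 189 and 225 reads after pladienolide B, and events with fewer than 20 were not analysed here, so exons whose reads were lost under treatment cannot be judged.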
